A study of Mus musculus with 24 samples.

Results

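A set of 6 homeobox genes was followed in whole hippocampus of mice, and they were read as their own rows among the 49568 gene symbols of the raw counts of each library. They were Otx2, Lmx1a and Msx1, which pattern the dorsal midline of the forebrain, and Lhx9, Lhx2 and Emx2, grouped here as cortical genes. Of the latter, Lhx2 and Emx2 pattern the cortex and hippocampus. All 6 of 6 passed the filter on low counts, as did 18482 genes in all. The genes were picked for their levels across these same libraries, so their levels and fitted differences are given below as a description. Where the fit called some of them, the count stands beside the share of all genes called and is no independent test.

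RNA came from male wild-type (WT) mice and from mice homozygous for MSK1 KD, a point mutation that inactivates a kinase domain of MSK1, an enzyme activated downstream of brain-derived neurotrophic factor. Both were on a C57-Bl/6J background, at an age of 12 weeks by the sample labels. The mutation was present in every cell from conception, and WT and MSK1 KD animals were bred as separate homozygous lines. Mice were raised in standard housing (SH) or, from before birth, in an enriched environment (EE) of large cages with a running wheel and toys. Of the 24 libraries, 33B and 34B failed quality control, which left 22, with 6 for each standard-housed group (WT SH, KD SH) and 5 for each enriched group (WT EE, KD EE). Another 5 (2, 9, 12, 31B and 35A) were set aside by the study for poor correlation within their group, and they are kept here and named wherever a value turns on them. Nothing in the labels says that libraries of a group came from separate litters, so the spread is that between these libraries. The MSK1 mutation changes a codon, so that the level of Rps6ka5, the gene of MSK1, checks no label. It was 19.3 to 29.5 CPM over the 22 libraries, with all 4 groups overlapping.

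Homeobox genes encode transcription factors that bind DNA through a shared domain and set the identity of regions of the embryo. Along the dorsal midline of the developing forebrain, the cortical hem and the choroid plexus release Wnt and Bmp signals, and the hippocampus forms beside them. Lhx2 and Emx2 act on the cortical side of this border, where Lhx2 holds back hem fate and Emx2 is needed for growth of the hippocampus. Otx2 is required to form the choroid plexus and remains on in its epithelium, the cell layer that makes cerebrospinal fluid. Lmx1a marks the hem and roof plate, and Msx1 is a target of Bmp signaling. Lhx9 is a LIM factor of pioneer neurons and of the thalamus.

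Otx2 (ENSMUSG00000021848) lies on the minus strand at chr14:48657677-48673819 of GRCm38, Lmx1a (ENSMUSG00000026686) on the plus strand at chr1:167689237-167848741 and Msx1 (ENSMUSG00000048450) on the minus strand at chr5:37820485-37824583. Lhx9 (ENSMUSG00000019230) lies on the minus strand at chr1:138825186-138848577, Lhx2 (ENSMUSG00000000247) on the plus strand at chr2:38339281-38369733 and Emx2 (ENSMUSG00000043969) on the plus strand at chr19:59458372-59465357. The values below are sums over the exons of each gene. Reads were counted without regard to strand, and Emx2 shares 264 exon bases with its antisense neighbor Emx2os. Otx2 shares 154 exon bases with the opposite-strand transcript Otx2os1 and 168 with Gm49154 on its own strand. Reads from these stretches cannot be assigned to one partner.

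The promoters of Otx2, Lmx1a and Msx1 are shown because these 3 genes were high and low in the same libraries. Each is the 250 bases before an annotated transcription start, read 5′ to 3′ on the gene's strand from RefSeq on GRCm38.p6, the assembly to which the reads were aligned. They are chr14:48667645-48667894 (minus strand) for Otx2, chr1:167689308-167689557 (plus strand) for Lmx1a and chr5:37824586-37824835 (minus strand) for Msx1. Capitals mark TAATTA, the core that many homeodomains bind.
Otx2: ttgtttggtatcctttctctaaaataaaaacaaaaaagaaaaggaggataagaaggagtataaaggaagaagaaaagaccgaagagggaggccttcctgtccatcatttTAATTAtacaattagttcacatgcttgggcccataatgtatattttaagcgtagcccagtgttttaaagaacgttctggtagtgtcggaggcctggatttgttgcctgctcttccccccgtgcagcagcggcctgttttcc
Lmx1a: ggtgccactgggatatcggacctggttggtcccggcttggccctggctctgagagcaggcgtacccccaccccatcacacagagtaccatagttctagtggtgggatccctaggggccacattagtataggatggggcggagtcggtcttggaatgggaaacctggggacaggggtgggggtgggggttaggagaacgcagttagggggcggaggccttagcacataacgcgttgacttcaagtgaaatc
Msx1: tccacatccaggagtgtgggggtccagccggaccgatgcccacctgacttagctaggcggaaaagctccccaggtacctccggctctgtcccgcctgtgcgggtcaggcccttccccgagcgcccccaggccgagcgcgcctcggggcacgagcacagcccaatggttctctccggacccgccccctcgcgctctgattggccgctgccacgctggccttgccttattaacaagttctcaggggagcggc
TAATTA occurred once in this promoter of Otx2 and in neither of the others, and it was present in 4.84% of 32851 promoters of the same length. TAATCC, a core bound by Otx and other bicoid-type homeodomains, was in none of the 3, against 6.25% of all promoters. Both strands were searched, and the 2 cores have their first 4 letters in common. The E-box CANNTG was found once in each, against 66.2% of all promoters. The Msx1 promoter held 20 CpG and 68.0% G and C, Lmx1a 9 and 59.2%, and Otx2 6 and 42.0%, beside medians of 6 and 52.4% over all promoters. Another start of Otx2, whose window lies in exons and is not shown, held TAATTA 3 times and TAATCC once. The windows of Otx2 at chr14:48662735-48662984 and chr14:48667509-48667758, also not shown, held neither core.

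Counts on genes were between 8911999 and 56752074 per library. Levels are given as CPM, counts scaled by TMM to a common library size. A floor of 3 counts stood for between 0.0542 and 0.334 CPM, and it covers counting error only. In bulk tissue, fewer cells of a type and less RNA in each cell cannot be told apart. Markers of hippocampal neurons were present throughout, with a summed level of 10 genes between 1120 and 1651 CPM. Libraries 12 and 14 stood apart in markers of neighboring regions. The summed 11 thalamic genes reached 526 CPM in library 12 and at most 206 in any other, and the summed 9 striatal genes reached 362 CPM in library 14.

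Per kb of exon, Lhx2 had the highest median level over the 22 libraries, at 17.1 CPM, followed by Emx2 at 4.97, Msx1 at 1.94, Lhx9 at 1.62, Otx2 at 0.475 and Lmx1a at 0.136. The range of Lhx2 lay above all others, whereas each gene below it overlapped its neighbors in this order. The spread between libraries differed much more than the level. The coefficient of variation of the CPM was 120.0% for Otx2, 114% for Lmx1a and 71.9% for Msx1, against 16.7% for Lhx9, 10.6% for Emx2 and 8.29% for Lhx2, and the median over all genes tested was 12.9%. The genes of the dorsal midline were at percentiles 99.7 (Otx2), 99.6 (Lmx1a) and 98.3 (Msx1) of this measure, and those grouped as cortical at 60.2 (Lhx9), 38.1 (Emx2) and 21.2 (Lhx2).

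**Figure D1:**
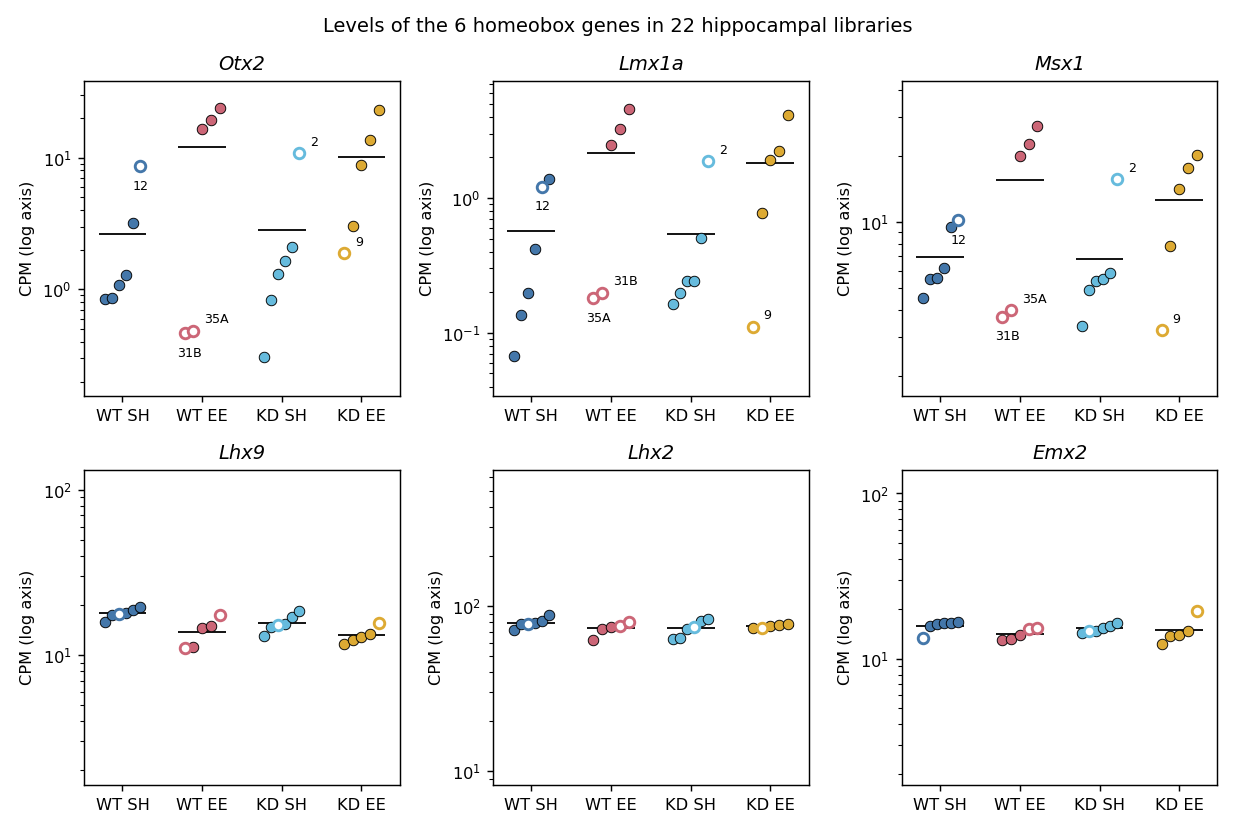
CPM on log axes of the 6 genes, 1 point a library and a bar at the group mean, with open points for the 5 libraries the study set aside. Each lower panel spans the same fold, and Otx2, Lmx1a and Msx1 spread widely in every group, while Lhx2 stays between 62.6 and 88.04 CPM.

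Otx2 had the widest range of the 6 genes, from 0.309 CPM in library 6 of KD SH to 23.9 CPM in library 33A of WT EE, which was 77.2-fold. In WT SH, its lowest, median and highest levels were 0.844, 1.19 and 8.59 CPM, the highest in library 12 and the next, 3.22 CPM, in library 11. In WT EE, it was 19.4 CPM in library 16, 16.6 in 17 and 23.9 in 33A, but 0.463 in 31B and 0.487 in 35A. Enriched WT mice thus fell into libraries with abundant Otx2 and libraries with less of it than any library of WT SH. In KD SH, the lowest, median and highest levels were 0.309, 1.48 and 10.9 CPM, the highest in library 2 and the next at 2.12 CPM. In KD EE, Otx2 was 3.02 CPM in library 7, 8.80 in 8, 1.89 in 9, 13.6 in 32A and 22.9 in 36A. The means, 12.2 ± 10.97 CPM (SD, n = 5) in WT EE, 10.04 ± 8.59 (SD, n = 5) in KD EE, 2.85 ± 3.98 (SD, n = 6) in KD SH and finally 2.65 ± 3.05 (SD, n = 6) in WT SH, lay in that order, and each group overlapped the other 3.

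Lmx1a was the scarcest of the 6 genes, with between 1 and 208 counts in a library, and 3 libraries were at or under the floor of 3 counts. In WT SH, its lowest, median and highest levels were 0.0678, 0.308 and 1.39 CPM, the highest in library 11 and the next, 1.21, in library 12. In WT EE, it was 3.27 CPM in library 16, 2.48 in 17 and 4.60 in 33A, and 0.198 in 31B and 0.181 in 35A. As for Otx2, 31B and 35A lay far below the other enriched WT libraries. In KD SH, the lowest, median and highest were 0.163, 0.241 and 1.89 CPM, the highest again in library 2. In KD EE, Lmx1a was 0.773 CPM in library 7, 1.91 in 8, 0.111 in 9, 2.21 in 32A and 4.12 in 36A. The mean was 2.15 ± 1.94 CPM (SD, n = 5) in WT EE, 1.83 ± 1.54 (SD, n = 5) in KD EE, 0.57 ± 0.581 (SD, n = 6) in WT SH, then 0.539 ± 0.671 (SD, n = 6) in KD SH, and all of these groups overlapped.

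Msx1 varied over the same libraries, on a higher base of at least 3.23 CPM. In WT SH, the lowest, median and highest levels were 4.52, 5.87 and 10.2 CPM, with libraries 12 and 11 highest. In WT EE, Msx1 was 22.6 CPM in library 16, 19.99 in 17 and 27.5 in 33A, against 3.70 in 31B and 3.97 in 35A. In KD SH, the lowest, median and highest were 3.36, 5.47 and 15.8 CPM, and only library 2 was above 5.85. In KD EE, it was 7.81 CPM in library 7, 14.2 in 8, 3.23 in 9, 17.7 in 32A and 20.2 in 36A. The mean was 15.6 ± 11.02 CPM (SD, n = 5) in WT EE, 12.6 ± 7.02 (SD, n = 5) in KD EE, 6.92 ± 2.36 (SD, n = 6) in WT SH, then 6.81 ± 4.48 (SD, n = 6) in KD SH, and here too the groups overlapped. The ratio of Msx1 to Otx2 counts was not fixed and went from 0.881 in library 36A to 17.9 in library 6.

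Lhx9 had its highest mean in WT SH, at 17.9 ± 1.27 CPM (SD, n = 6), with libraries between 15.8 and 19.5 and a median of 17.9. In WT EE, it was 14.6 CPM in library 16, 11.2 in 17, 17.5 in 31B, 14.9 in 33A and 11.1 in 35A. Only 31B of these reached the levels of WT SH. In KD SH, the lowest, median and highest were 13.1, 15.4 and 18.4 CPM, and in KD EE Lhx9 was 12.8 CPM in library 7, 13.5 in 8, 15.6 in 9, 12.4 in 32A and 11.7 in 36A. The means of KD SH, 15.7 ± 1.82 CPM (SD, n = 6), WT EE, 13.9 ± 2.74 (SD, n = 5), and KD EE, 13.2 ± 1.48 (SD, n = 5), followed in that order, with neighbors overlapping. The low level of Lhx9 in library 35A and the high one in 31B were found in libraries that were alike in Otx2.

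Lhx2 was the most abundant and the steadiest of the 6 genes. Its lowest, median and highest levels were 72.0, 78.1 and 88.04 CPM in WT SH and 63.1, 73.5 and 83.3 in KD SH. In WT EE, it was 75.1 CPM in library 16, 62.6 in 17, 75.2 in 31B, 72.8 in 33A and 79.8 in 35A. In KD EE, it was 77.8 CPM in library 7, 76.4 in 8, 73.5 in 9, 75.3 in 32A and 73.2 in 36A. All 4 groups overlapped, and their means lay between 73.0 and 79.2 CPM.

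Emx2 varied little more than Lhx2, with all but 1 library between 12.3 and 16.6 CPM. Its lowest, median and highest levels were 13.4, 16.2 and 16.6 CPM in WT SH, where library 12 was the low one and the other 5 began at 15.8, and 14.4, 15.02 and 16.5 in KD SH. In WT EE, Emx2 was 13.2 CPM in library 16, 12.9 in 17, 15.1 in 31B, 13.9 in 33A and 15.2 in 35A. In KD EE, it was 13.8 CPM in library 7, 12.3 in 8, 19.5 in 9, 13.9 in 32A and 14.8 in 36A. Library 9, the shallowest, thus had the highest Emx2, from 175 counts. Emx2os, on the opposite strand, lay between 7.27 and 10.7 CPM, and library 9 had 7.68. The ratio of Emx2 to Emx2os counts was 2.54 in library 9 and had a median of 1.62 over the 22 libraries.

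Spearman correlations are given as a description, and over the 22 libraries they mix both housings and unequal depths. They were 0.82 between Otx2 and Lmx1a, 0.79 between Otx2 and Msx1 and 0.83 between Lmx1a and Msx1. Within the 10 enriched libraries, they were between 0.95 and 0.98, and within the 12 standard-housed libraries 0.63, 0.34 and 0.36. The cortical genes were less tied to one another, with 0.63 for Lhx9 and Emx2, 0.08 for Lhx9 and Lhx2 and 0.12 for Lhx2 and Emx2. Emx2 ran opposite to the dorsal midline genes, at -0.60 with Otx2, -0.60 with Lmx1a and -0.61 with Msx1. In the standard-housed libraries alone, these were -0.50, -0.07 and -0.19.

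The 5 genes most like Otx2 over the 22 libraries, by Spearman correlation, were Cab39l (0.96), Enpp2 (0.96), Glb1l2 (0.95), Pla2g5 (0.95) and Cldn2 (0.95). Enpp2 makes the secreted enzyme autotaxin, and Cldn2 is a claudin of leaky epithelia such as choroid plexus. Those most like Lmx1a were Oca2 (0.95), Mdfic (0.95), Wdr86 (0.94), 1500015O10Rik (0.94) and Sntb1 (0.93). Those most like Msx1 were Slc22a18 (0.96), Tmem184a (0.96), 4930511M06Rik (0.95), Foxj1 (0.93) and Rsph1 (0.93), and Foxj1 and Rsph1 serve motile cilia. The cortical genes had weaker neighbors. The closest were Myo5b, Irs4, Sh3gl2, Gm2061 and Cybrd1 for Lhx9 (0.77 to 0.84), Fbrsl1, Ppp1r9b, Git1, Ppp2r2c and Tmcc2 for Lhx2 (0.80 to 0.89), and Ccdc85a, Cinp, Gpr85, Kcnd2 and Glyr1 for Emx2 (0.78 to 0.82). Of 15 markers of choroid plexus epithelium, 12 were among the 100 genes most like Otx2, 11 among those most like Lmx1a, 2 among those most like Msx1 and none among those of Lhx9, Lhx2 or Emx2.

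The summed level of these 15 markers was given for every library beside the homeobox genes. It was between 73.8 and 1962 CPM in WT SH (median 89.3), between 79.3 and 5586 in WT EE (median 4303), between 51.8 and 3065 in KD SH (median 151) and between 233 and 6005 in KD EE (median 2354), and none of the 15 was at 0 in all 22 libraries. Ttr, which encodes the thyroid hormone carrier transthyretin, went from 16.8 to 5129 CPM, Kcnj13 from 0.0563 to 11.9 and Folr1 from 0.814 to 40.8. The highest sums of their groups were in libraries 12 (1962 CPM), 33A (5586), 2 (3065) and 36A (6005), and Otx2 was at its highest in each group in these same 4 libraries. The libraries 31B and 35A, with the lowest Otx2 among WT EE, had sums of 81.0 and 79.3 CPM. An exception at the low end was library 5 of KD SH, which had the lowest sum of all, 51.8 CPM, and the highest Otx2 of KD SH after library 2, 2.12 CPM. The summed markers of ependyma and meninges moved with these genes in part, over a narrower range. Not every gene of these lists did so. From WT SH to WT EE, the mean of Foxj1 went from 12.7 to 17.1 CPM and that of Ccdc153 from 5.05 to 4.38. Among meningeal genes, Igf2 went from 58.1 to 147 CPM and Dcn from 52.6 to 53.0. Library 12, highest of WT SH in Otx2, had an ependymal sum of 32.5 CPM, within the 29.4 to 35.1 of its group. The summed 8 ependymal genes were between 20.9 and 55.7 CPM over all libraries, and in WT EE they were 51.6 CPM in library 16, 49.3 in 17 and 55.7 in 33A, against 21.8 in 31B and 20.9 in 35A. The summed 9 meningeal genes were between 94.7 and 391 CPM, and in the same libraries they were 391, 361 and 331, against 104 and 165. Library 2 had the highest sums of KD SH in both, 50.8 and 257 CPM, and library 36A those of KD EE, 45.9 and 345 CPM. The 10 astrocyte genes were between 4473 and 6146 CPM. The part of these cell types in the levels of the homeobox genes was not tested.

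**Figure D2:**
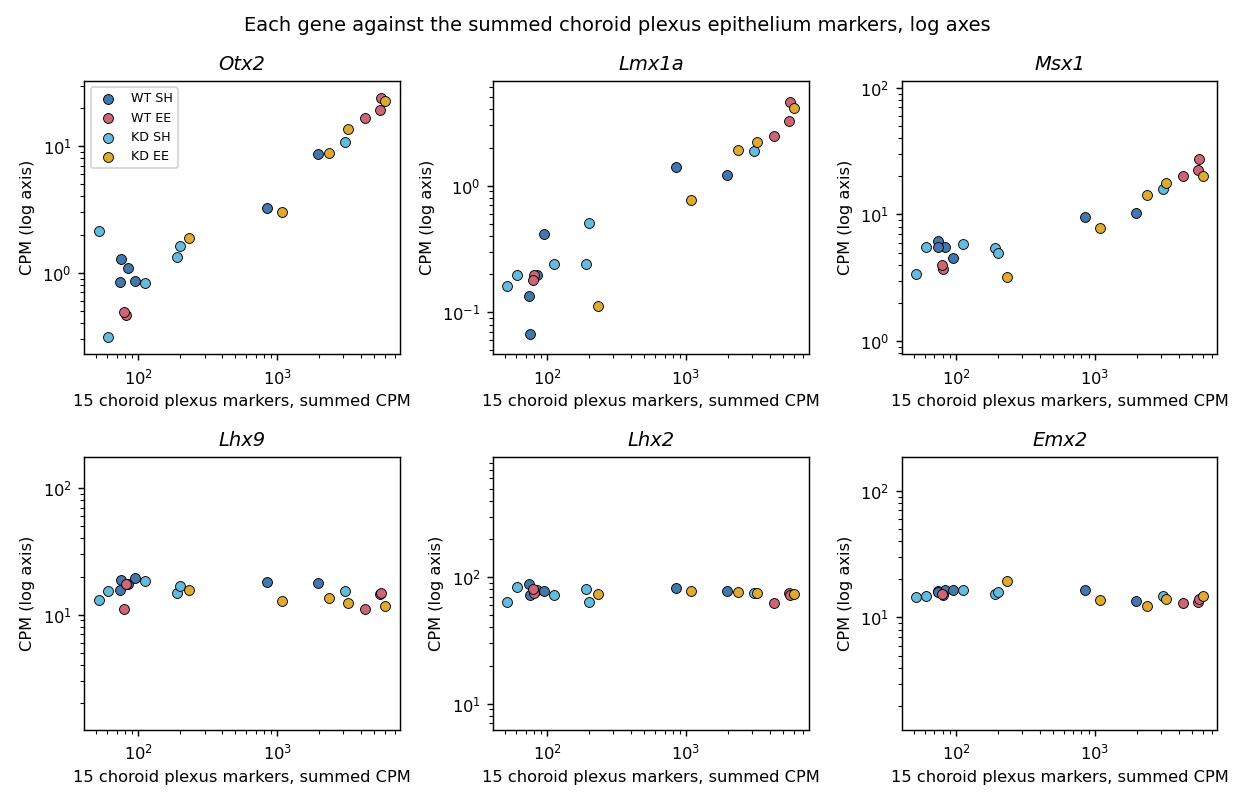
CPM of each gene against the summed CPM of 15 markers of choroid plexus epithelium, log axes, 1 point a library colored by group, with each vertical axis spanning the same fold above and below its center. Otx2, Lmx1a and Msx1 are highest where the marker sum is highest, with no clear order among libraries of low sum, and Lhx9, Lhx2 and Emx2 stay nearly level.

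Enriched and standard housing were compared within each genotype in 1 edgeR fit of the 22 libraries. The fitted log2 differences of EE over SH in WT were 2.25 (SE 0.87) for Otx2, 2.00 (SE 0.79) for Lmx1a, 1.18 (SE 0.46) for Msx1, -0.37 (SE 0.11) for Lhx9, -0.11 (SE 0.07) for Lhx2 and -0.16 (SE 0.09) for Emx2. In MSK1 KD, they were 1.84 (SE 0.85), 1.78 (SE 0.76), 0.92 (SE 0.46), -0.26 (SE 0.11), 0.04 (SE 0.07) and -0.05 (SE 0.09), in the same order. A call needed both an adjusted p no greater than 0.05 and a log2 difference of at least 0.38, up or down. None of the 6 was called in either genotype, and 0% of the 18482 genes tested were called, with 1598 genes in WT and 1779 in MSK1 KD at an unadjusted p under 0.05. Another tool, DESeq2, called 18 and 4 genes. None of the 6 genes had every EE library above every SH library, where 0.46% of all genes did in WT and 0.233% in MSK1 KD, and none had every EE library below, where 0.73% and 0.314% did.

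Over the 17 libraries that the study kept, the log2 differences in WT were 3.84 (SE 0.45) for Otx2, 3.11 (SE 0.52) for Lmx1a, 1.92 (SE 0.22) for Msx1, -0.40 (SE 0.11) for Lhx9, -0.18 (SE 0.09) for Lhx2 and -0.28 (SE 0.08) for Emx2. In MSK1 KD, Otx2 was 3.35 (SE 0.43), Lmx1a 3.00 (SE 0.52), Msx1 1.59 (SE 0.21), Lhx9 -0.33 (SE 0.10), Lhx2 0.06 (SE 0.08) and Emx2 -0.17 (SE 0.08). Otx2, Lmx1a, Msx1 and Lhx9 were called in WT, where 3.55% of 18701 genes were, and the first 3 in MSK1 KD, where 1.74% were. Leaving out each of the 17 libraries in turn was added after seeing the data. Otx2, Lmx1a and Msx1 were called whichever was left out, and Lhx9 in WT was called in 5 of 17 cases. Among all genes, these refits called from 504 of 19160 to 710 of 18645 in WT. In MSK1 KD, they called from 190 of 18645 to 423 of 18705. With all 17 libraries in, EE lay wholly above SH in WT for Otx2, Lmx1a and Msx1 (8.11% of all genes) and wholly below for Lhx9 and Emx2 (4.31%). In MSK1 KD, it lay wholly above for Otx2, Lmx1a and Msx1 (2.13%) and wholly below for none of the 6 (0.984%). The genes were chosen on these libraries, so nothing is read from these counts.

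In Otx2 and in Msx1, each of the 5 lay outside the range of the kept libraries of its own group, with libraries 2 and 12 above it and libraries 9, 31B and 35A below it. In Lmx1a this held for 4 of 5, since library 12 was second to library 11. The sum of the choroid plexus markers lay on the same side as these 3 genes in each such case. In Emx2 it also held for 4 of 5, but on other sides, with libraries 9, 31B and 35A above the kept libraries and library 12 below. In Lhx9 it held for 9 and 31B, above, and 35A, below, and in Lhx2 for 31B and 35A, both above. Libraries 2 and 12 lay within the range of the kept libraries in Lhx9 and Lhx2.

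With a score of the 15 choroid plexus markers as a covariate in the fit of the 22 libraries, the log2 differences in WT were -0.20 (SE 0.27) for Otx2, -0.09 (SE 0.29) for Lmx1a and -0.05 (SE 0.17) for Msx1, and those in MSK1 KD were -0.24 (SE 0.28), -0.14 (SE 0.31) and -0.26 (SE 0.18). For Lhx9 they were -0.34 in WT and -0.22 in MSK1 KD, close to the values without the score, and for Emx2 -0.09 and 0.04. Over the 17 libraries with that score, Lmx1a was at -1.20 (SE 0.61) in WT and -1.14 (SE 0.59) in MSK1 KD, against 3.11 and 3.00 without it, and Otx2 at 0.21 (SE 0.62) and -0.07 (SE 0.57). Otx2, Lmx1a and Msx1 differed between housings by less than their SE once the score was in the fit of the 22 libraries, except for Msx1 in MSK1 KD. Of the 15 markers in the score, 12 were among the 100 genes most like Otx2 in these same libraries, and 11 for Lmx1a. A smaller difference with the score therefore tests no cause. In the kept WT libraries, the marker sum was at most 845 CPM in SH and at least 4303 in EE. In the kept MSK1 KD libraries, it was at most 199 CPM in SH and at least 1089 in EE. Score and housing cannot be told apart in the kept libraries of either genotype.

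**Figure D3:**
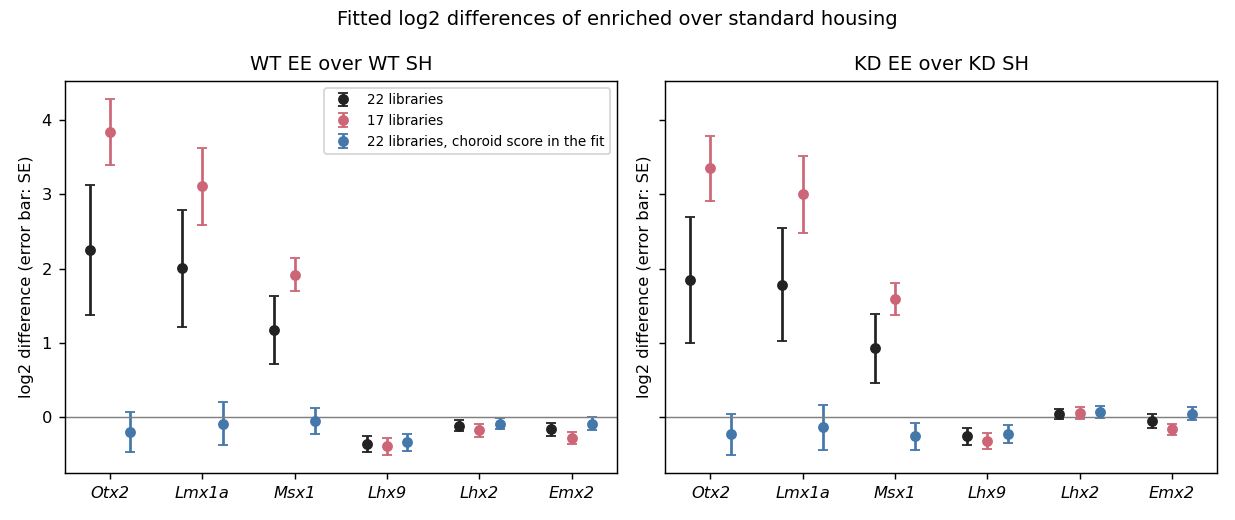
Fitted log2 differences of EE over SH with SE bars in WT (left) and MSK1 KD (right), over 22 libraries, over 17 libraries and over 22 libraries with the choroid plexus marker score in the fit. The difference of Otx2 in WT is 2.25 over 22 libraries, 3.84 over 17 and -0.20 with the score, whereas that of Lhx9 stays between -0.34 and -0.40.

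Genotypes were compared within each housing. Over the 22 libraries, the log2 differences of WT over MSK1 KD in standard housing were -0.20 (SE 0.87) for Otx2, -0.13 (SE 0.82) for Lmx1a, -0.01 (SE 0.45) for Msx1, 0.19 (SE 0.10) for Lhx9, 0.12 (SE 0.07) for Lhx2 and 0.05 (SE 0.08) for Emx2. In enriched housing, they were 0.20 (SE 0.85), 0.09 (SE 0.74), 0.24 (SE 0.48), 0.08 (SE 0.11), -0.04 (SE 0.07) and -0.06 (SE 0.09). The interaction of genotype and housing was 0.40 (SE 1.21) for Otx2, 0.22 (SE 1.10) for Lmx1a, 0.25 (SE 0.65) for Msx1, -0.11 (SE 0.15) for Lhx9, -0.16 (SE 0.10) for Lhx2 and -0.11 (SE 0.13) for Emx2. None of the 6 was called in these 3 comparisons over 22 libraries (0% of genes each) or over 17 (0%, 0.00535% and 0%). For Otx2, Lmx1a and Msx1, each of these differences over 22 libraries was smaller than its SE.

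Among 20 partners of the dorsal midline, which are Wnt, R-spondin and Bmp ligands, Zic factors and the relatives Otx1, Lmx1b and Msx2, 19 were tested over the 22 libraries, and none was called in either genotype. Their median log2 difference of EE over SH was 0.01 in WT and 0.00 in MSK1 KD, beside 0.01 and 0.00 for all genes. The highest was Bmp6, a Bmp ligand, at 0.93 (SE 0.36, adjusted p = 0.439) in WT and Gdf7, a roof plate ligand, at 0.998 (SE 0.42, adjusted p = 0.49) in MSK1 KD. The lowest was Zic1, a zinc finger factor of the dorsal brain, at -0.77 (SE 0.41, adjusted p = 0.634) in WT and the ligand Wnt8b at -0.54 (SE 0.34, adjusted p = 0.612) in MSK1 KD. The level of Zic1 was between 6.88 and 50.9 CPM over the 22 libraries.

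Over the 17 libraries, the ligands Bmp4, Bmp6 and Bmp7 rose in WT, by log2 1.13 (adjusted p = 0.00977), 1.53 (adjusted p = 2.34e-06) and 1.13 (adjusted p = 1.78e-05). In MSK1 KD, Bmp6 and Bmp7 rose, by 1.30 (adjusted p = 1.57e-05) and 0.96 (adjusted p = 0.000137), and Bmp4 was at 0.73 (adjusted p = 0.199). The call of Bmp4 was lost without library 16. The other 17 partners did not pass in WT. The study kept these libraries by their correlation within groups, which narrows the spread. For Bmp6 in WT, the SE was 0.36 over 22 libraries and 0.16 over 17. Adjusted p-values over 17 libraries, here and below, therefore describe that selection and are no independent test. With the choroid plexus score in the fit of the same 17 libraries, an alternative chosen after seeing the data, edgeR called 0 genes in either genotype, with 683 in WT and 495 in MSK1 KD at an unadjusted p under 0.05. The differences of Bmp4, Bmp6 and Bmp7 were then 0.15 (SE 0.60), 0.66 (SE 0.34) and 0.93 (SE 0.35) in WT and -0.15 (SE 0.54), 0.53 (SE 0.30) and 0.79 (SE 0.31) in MSK1 KD, each with a larger SE than without the score. The score separates EE from SH in the 17 libraries of both genotypes, so it takes up much of the housing difference. Nothing is therefore read from the loss of calls.

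Among 20 partners in cortical patterning, all 20 were tested, and none was called over 22 libraries. The median log2 difference was -0.18 in WT and -0.08 in MSK1 KD. The highest was Dmrt3, a doublesex-type factor of the medial cortex, at 0.93 (SE 0.33, adjusted p = 0.427) in WT and 0.78 (SE 0.34, adjusted p = 0.491) in MSK1 KD. The lowest was Hes5, a Notch target of neural stem cells, at -0.62 (SE 0.17, adjusted p = 0.374) and -0.44 (SE 0.17, adjusted p = 0.478). Over the 17 libraries in WT, Dmrt3 rose by 1.42 (adjusted p = 0.00125), and Neurod1, Neurod6 and Sox1 fell, by 0.55 (adjusted p = 0.0031), 0.41 (adjusted p = 0.013) and 0.47 (adjusted p = 0.0139) on the log2 scale. Neurod1 and Neurod6 are neuronal helix-loop-helix factors, and Sox1 is a factor of neural progenitors. In MSK1 KD, Dmrt3 rose by 1.04 (adjusted p = 0.0323), and its call was lost without any 1 of libraries 3, 4, 5, 8, 32A or 36A. In WT, the call of Sox1 was lost without library 16 or 17 and that of Neurod6 without 14, 17 or 33A.

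**Figure D4:**
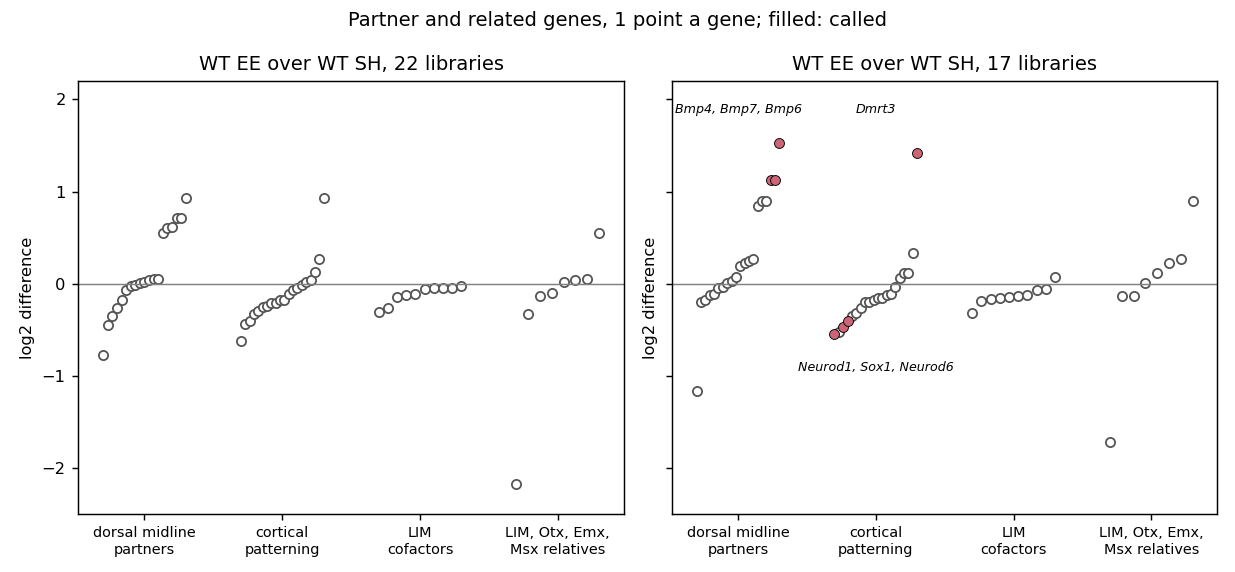
Log2 difference of WT EE over WT SH for the genes of 4 lists, 1 point a gene, over 22 libraries (left) and 17 libraries (right), filled where the gene was called, with the names of those called. No gene is called over 22 libraries, and 7 are called over 17.

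LIM cofactors bridge Lhx and Lmx proteins into complexes on DNA or compete for them. None of the 10 was called in either genotype over 22 or 17 libraries. Over the 22, they lay between -0.31 (Lmo1, SE 0.12, adjusted p = 0.434) and -0.03 (Ssbp4, SE 0.09, adjusted p = 0.973) in WT, and between -0.31 and 0.01 for the same genes in MSK1 KD. Ldb1, the main cofactor of LIM factors, was at 84.6 ± 5.01 CPM (SD, n = 6) in WT SH, close to the 81.7 ± 3.78 (SD, n = 5) of WT EE.

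Among 14 relatives of the 6 genes, 8 passed the filter on low counts, and none was called over 22 or 17 libraries. Emx1, the paralog of Emx2, was at 12.6 ± 1.11 CPM (SD, n = 6) in WT SH, 12.9 ± 2.36 (SD, n = 5) in WT EE, 11.5 ± 1.53 (SD, n = 6) in KD SH, then 13.2 ± 1.89 (SD, n = 5) in KD EE. Otx1, the paralog of Otx2, was between 2.74 and 6.08 CPM in the 22 libraries, against the 77.2-fold range of Otx2, and its log2 difference in WT was 0.01 (SE 0.16). Msx2 had the highest difference among the relatives, 0.55 (SE 0.29, adjusted p = 0.63) in WT and 0.40 (SE 0.31, adjusted p = 0.683) in MSK1 KD, at levels between 0.223 and 0.918 CPM. Isl1, a LIM factor of striatal and other ventral neurons, had the lowest, -2.18 (SE 0.82, adjusted p = 0.436) and -2.64 (SE 1.15, adjusted p = 0.491), and its mean was 0.613 ± 0.521 CPM (SD, n = 6) in WT SH. Lhx6, a factor of cortical interneurons, was between 16.3 and 24.4 CPM, and Lhx1, of Cajal-Retzius cells, between 0.0773 and 0.880. The other 8 relatives, Isl2, Lhx3, Lhx4, Lhx5, Lhx8, Lmx1b, Crx and Msx3, had a mean of less than 0.5 CPM in every group.

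Otx2os1, the transcript opposite Otx2, was between 0 and 1.61 CPM, with 10 libraries at or under the floor. It was 0.978 CPM in library 16, 0.961 in 17, 0.132 in 31B, 1.19 in 33A and listed at 0 in 35A, which set the WT EE libraries apart in the same way as Otx2 did. Over the 22 libraries, its log2 difference was 1.93 (SE 0.84, adjusted p = 0.508) in WT and 2.55 (SE 0.86, adjusted p = 0.457) in MSK1 KD. Over the 17, it rose in both genotypes, by 3.56 (adjusted p = 0.000209) and 3.75 (adjusted p = 0.000264). Emx2os had a log2 difference of -0.16 (SE 0.10, adjusted p = 0.713) in WT and -0.27 (SE 0.10, adjusted p = 0.478) in MSK1 KD and was called over neither set of libraries.

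All 5 libraries with a letter in their name among the 22 were enriched, so that the letter could not be compared within standard housing. Without them, the log2 difference in WT was 2.82 (SE 0.80) for Otx2, 2.44 (SE 0.76) for Lmx1a, 1.64 (SE 0.41) for Msx1 and -0.46 (SE 0.13) for Lhx9, from libraries 16 and 17 alone on the enriched side. Msx1 was then called, as 1 of 314 genes among 19153 tested. It was picked for its levels in these libraries, so nothing is read from this call. In MSK1 KD, with libraries 7, 8 and 9, it was 0.78 (SE 0.79), 0.94 (SE 0.77), 0.38 (SE 0.39) and -0.17 (SE 0.11). Leaving out any 1 of the 22 libraries moved the difference of Otx2 between 1.82 and 3.10 in WT, the highest without library 12, and between 1.32 and 3.11 in MSK1 KD, the highest without library 2. Those of Lhx9 stayed between -0.47 and -0.30 in WT and between -0.32 and -0.21 in MSK1 KD.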

How the data were processed

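Polyadenylated RNA of whole hippocampus was sequenced as paired-end TruSeq libraries. Per the labels and methods of the study, the authors trimmed the reads, used STAR 2.5 with GRCm38 as the genome, and let HTSeq assign unique alignments to gene symbols on either strand. The deposited counts of each library are raw, and the series table of counts divided by size factors was not used.

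Counts of the 22 libraries were filtered with filterByExpr, scaled by TMM and fitted with the quasi-likelihood test of edgeR 4.0.16 in R 4.3.3, with 1 mean for each of the 4 groups and Benjamini-Hochberg adjustment over all genes tested. Genes were called at an adjusted p of 0.05 and a log2 difference of 0.38. Between 14.0% and 18.6% of the fragments listed by HTSeq were not assigned to a single gene, for any reason, and were left out. The marker score is the mean log2 CPM of the 15 choroid plexus genes. The members and the lists were chosen with earlier results of these data known. Named genes were the 6 members, their relatives and antisense transcripts (values above 0.5 CPM), the 5 genes most correlated with each member, and the highest, lowest and called genes of each list. Positions and exon lengths are those of GENCODE M21, while the authors counted on another release. Alternatives were the 17 and the 24 libraries, no lettered libraries, only the groups compared, the size factors of DESeq2 1.42.0 and its Wald test, no filter, the adjusted p alone, CPM from total counts, Pearson correlations, the marker score as covariate and each library left out. The edgeR fit was tested on simulated data. For WT EE against WT SH, over 18482 genes, 98 of 100 genes changed by a log2 of 1 and 100 of 100 changed by 2 were called, as were 7 of 18040 unchanged genes. Each simulated gene had the spread typical of its level, and only genes above 1 CPM were changed. The wider spread of Otx2, Lmx1a and Msx1 between the real libraries was not simulated, so these counts do not give the power for such genes. Of 50 pairs of libraries within groups, 0 held identical counts, and none agreed within sampling noise (chi-square over degrees of freedom at least 4.32).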

Additional observations from a re-analysis of the deposited data

Results flagged for a closer look

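In 24 groups of values (6 genes in 4 groups of libraries), the distance of the most extreme library from the next one was set against the range of its group. On CPM, 5 groups held a library that stood apart, and on log2 CPM 2 of these did. All of them were in library 2 or library 12. The genes were picked for their levels in these libraries, and some rise and fall together, so no chance rate applies to these numbers. On both scales, Msx1 in library 2 of KD SH was apart at 15.8 CPM, with the next library at 5.85 CPM. On CPM only, this library was also apart in Otx2, at 10.9 CPM with the next at 2.12, and in Lmx1a, at 1.89 CPM with the next at 0.503, and its sum of choroid plexus markers was 3065 CPM. On CPM only, Otx2 in library 12 of WT SH was 8.59 CPM, with the next at 3.22 CPM. On both scales, Emx2 in library 12 of WT SH was 13.4 CPM, with the next at 15.8 CPM, and this library also had the highest sum of thalamic markers, 526 CPM, and of choroid plexus markers in its group, 1962 CPM. The part of these markers in these values was not tested.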

How the results depend on the processing

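The fit of 22 libraries called 0 genes in each of the 5 comparisons. For WT EE against WT SH, 664 genes were called over 17 libraries, 1 over 24, 314 without lettered libraries, 7 with no filter and 18 by the Wald test of DESeq2. For KD EE against KD SH, these were 325 over 17 libraries and 4 by DESeq2. DESeq2 called 2 genes for WT SH against KD SH, and the 17 libraries gave 1 for WT EE against KD EE. Leaving out each of the 22 libraries gave between 0 and 1 called gene for KD EE against KD SH and for WT EE against KD EE, the 1 without library 9. Of 384 log2 differences of the 6 genes between housings under the alternatives, 372 moved by less than the spread between libraries and 12 by more. Most of these alternatives left out 1 library. The spread was wide for Otx2, Lmx1a and Msx1, with coefficients of variation of 120.0%, 114% and 71.9%, so a large move of these genes can lie within it. With the choroid plexus score in the fit of 22 libraries, Otx2 was at -0.20 in WT and -0.24 in MSK1 KD, Lmx1a at -0.089 and -0.14 and Msx1 at -0.053 and -0.26. With that score in the fit of 17 libraries, chosen after seeing the data, Lmx1a was at -1.20 and -1.14, Emx2 at -0.44 and -0.30 and Otx2 in MSK1 KD at -0.071. Emx2 in WT was at -0.28 over the 17 libraries. The cause was not tested. The fit without libraries 12 and 14 was also chosen after seeing the data, and it called 0 genes. No paired analysis was possible because the groups share no replicate numbers. Of the 5 genes most like each member, between 1 and 3 were shared when Pearson correlation was used and between 0 and 2 over 17 libraries. CPM from total counts moved no value of the 6 genes in a library by more than 3.20%. Levels of Lmx1a, Isl1 and Otx2os1 near the floor rest on few counts.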

Other observations

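The libraries that failed quality control were not in the fit. Library 33B, of an enriched WT mouse, held 111 counts of Otx2, 26 of Lmx1a, 145 of Msx1, 180 of Lhx9, 885 of Lhx2 and 215 of Emx2, which were 5.95, 1.39, 7.77, 9.64, 47.4 and 11.5 CPM by its total counts. Library 34B, of an enriched MSK1 KD mouse, held 1 count of Otx2 and 1 of Lhx9 and none of the other 4 genes.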
